A study of Mus musculus with 2 samples.

Results

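The genes described here are 34 genes of glycolysis and of the response to low oxygen, out of 32285 genes in the count matrices. They were chosen by name, with earlier results of these data known. They fall into 17 glycolytic enzymes, 15 hypoxia response genes that are not enzymes of the pathway, and 2 others, the monocarboxylate transporter Slc16a1 and the oxygen-regulated transcription factor gene Hif1a. All 34 were found in both matrices. The skin came from the back and flank of mouse embryos at E14.5, when the first hair follicles are forming. One library was labelled wildtype, and its alleles are not given further. The other came from littermates that carried K14Cre and a floxed Wntless gene (Wls). The keratin 14 promoter drives the Cre in epidermal keratinocytes, so the allele was targeted in the epidermis and not in the dermis, and Wls is needed for Wnt ligands to leave a cell. Each library pooled 2 to 3 embryos, and both were handled side by side: trypsin for 20 minutes at 37 °C, DAPI staining, sorting, and sequencing on 1 lane.

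Glycolysis splits glucose into pyruvate, and lactate dehydrogenase turns pyruvate into lactate when it is not sent to the mitochondria. When oxygen is low, prolyl hydroxylases (Egln1, Egln3) stop marking the factor HIF-1 alpha for destruction. HIF then binds a short DNA motif near genes for glucose transporters, glycolytic enzymes, the kinases that hold pyruvate out of the mitochondria, and signals such as VEGF-A. Embryonic skin is a rapidly dividing tissue, and dividing cells commonly use glycolysis even where oxygen is present. Hypoxia response genes can therefore move with growth, cell type or oxygen supply, and transcript counts do not measure flux through the pathway.

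The promoters of 6 members are shown because HIF binds DNA at cores of the letters ACGTG or GCGTG, and these 6 span the range from many such cores to none. Each sequence is the 120 bases before the transcript start (RefSeq, GRCm38.p6, the strand of the gene), and capitals mark a core on either strand, whose reverse complement reads CACGT for the first core and CACGC for the other. Where CACGTG stands it holds ACGTG on both strands and counts as 2 overlapping cores.
Ldha: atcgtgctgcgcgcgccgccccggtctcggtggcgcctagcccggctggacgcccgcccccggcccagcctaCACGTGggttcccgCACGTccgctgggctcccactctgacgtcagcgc
Gapdh: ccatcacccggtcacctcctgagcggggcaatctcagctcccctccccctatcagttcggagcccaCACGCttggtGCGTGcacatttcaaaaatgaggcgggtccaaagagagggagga
Pkm: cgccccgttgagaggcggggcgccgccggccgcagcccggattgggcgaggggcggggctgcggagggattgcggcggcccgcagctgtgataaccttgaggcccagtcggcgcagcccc
Slc2a1: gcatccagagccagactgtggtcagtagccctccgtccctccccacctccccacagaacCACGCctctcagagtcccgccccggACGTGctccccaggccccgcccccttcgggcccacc
Bnip3: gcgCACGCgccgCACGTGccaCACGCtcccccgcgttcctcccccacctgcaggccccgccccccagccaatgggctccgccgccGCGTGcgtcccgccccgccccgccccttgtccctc
Ankrd37: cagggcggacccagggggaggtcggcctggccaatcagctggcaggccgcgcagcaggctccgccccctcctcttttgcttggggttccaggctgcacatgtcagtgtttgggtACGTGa
They lie at chr7:46845684-46845803 (Ldha, plus strand), chr6:125165774-125165893 (Gapdh, minus), chr9:59656456-59656575 (Pkm, plus), chr4:119108625-119108744 (Slc2a1, plus), chr7:138909507-138909626 (Bnip3, minus) and chr8:45999851-45999970 (Ankrd37, minus).

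Over a longer window, from 250 bases before the start to 50 after it, 12 of the 17 enzymes had at least 1 core, or 70.6%. Of the 13 hypoxia response genes in the promoter table, 12 had one (92.3%). Across the first listed promoter of all 27025 genes in the table, 11836 (43.8%) had one. The members' windows were also richer in the dinucleotide CG, with medians of 17 in the enzymes and 26 in the hypoxia response genes against 7 over all genes, and these shares were not matched for it. Ldha had 7 cores in that window, Bnip3 5, Ankrd37 4, Gapdh 3 and Slc2a1 2. Pkm, Hk1, Gpi1, Aldoa, Tpi1 and Vegfa had none there. Slc2a3 and Ndrg1 were not in the table. A match is a run of letters in this window and says nothing of whether HIF bound it.

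The wildtype library held 9065 barcodes and 112593376 UMIs (counted molecules), the mutant library 10449 barcodes and 159841679 UMIs, and 19 barcode sequences occurred in both. Dermal cells were those on the authors' deposited lists, 5300 wildtype cells (62876844 UMIs) and 5028 mutant cells (81179288 UMIs). Median depths were 11154 and 15566 UMIs per cell. Other classes were set by marker genes and are called "-like" where only such markers name them: 430 and 146 epidermal cells, 447 and 415 muscle-like, 248 and 315 macrophage-like, 137 and 198 mast-like, 78 and 124 mural-like, 57 and 87 endothelial-like and 227 and 215 Schwann-like cells, wildtype first. Wls had 900 UMIs in wildtype and 3 in mutant epidermal cells (132.5 and 0.813 CPM, the counts scaled to 1e+06 UMIs of the class), and 91.8 and 77.0 CPM in the dermis. The labels do not say which stretch of Wls the allele removes. With 1 library per genotype no difference has a replicate check or a test. Intervals are 95% intervals for counting error only, and a gene is called higher or lower from a 1.5-fold difference, as a description. The reads come from 3' ends, so CPM values are compared between classes for 1 gene and not between genes.

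Among the classes of the wildtype library, the glycolytic enzymes were highest in mast-like cells. That class had the highest level of 13 of the 17 enzymes, and of 12 in the mutant library. Ldha, which makes lactate, was at 2476 CPM (2422 to 2530) in wildtype mast-like cells, with mural-like cells next at 697 CPM. Aldoa, the aldolase of most tissues, was at 1272 CPM there against 614 in mural-like cells. Gapdh was at 2528 CPM, with muscle-like cells next at 1464. Hk1, the first enzyme of the pathway in many cells, stood further apart at 104 CPM against 26.7 in endothelial-like cells. None of these intervals overlapped the interval of the next class. Per cell, the 17 enzymes together took a median of 0.991% of the UMIs of wildtype mast-like cells and 0.859% in the mutant library. The same medians in wildtype were 0.318% in the dermis, 0.452% in all epidermal cells, 0.414% in macrophage-like and 0.387% in muscle-like cells. Barcodes with red cell markers, used as a rough measure of free RNA, gave 0.00999% and 0.00696%, with medians of 279 and 307.5 genes. Mast-like cells were deep (median 22333 and 34474 UMIs), and 89.1% and 86.4% of them had UMIs of 3 or more of 16 G2M genes of the cell cycle. They also held 1790 and 1832 summed CPM of the 10 macrophage markers, 3 of which (C1qa, C1qc, Mrc1) were at 0 in wildtype. Part of that list, such as Fcer1g and Tyrobp, is known in mast cells too.

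The other 4 enzymes peaked elsewhere in wildtype. Ldhb, the lactate dehydrogenase form common in oxidative tissue, was at 245 CPM in the epidermis, 217 in Schwann-like and 167 in mural-like cells, and at 1.22 CPM in mast-like cells. The epidermal and Schwann-like intervals overlapped. Hk2, the inducible hexokinase, was at 56.1 CPM in macrophage-like and 46.3 in mast-like cells, again with overlap. Eno3, the muscle enolase, was highest in muscle-like cells at 22.8 CPM, above 13.6 in Schwann-like cells. Pfkm, named for muscle, was not: it was at 6.77 CPM there, below 10.5 in the dermis and 10.6 in fibroblast-like cells outside the dermal lists.

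**Figure D1:**
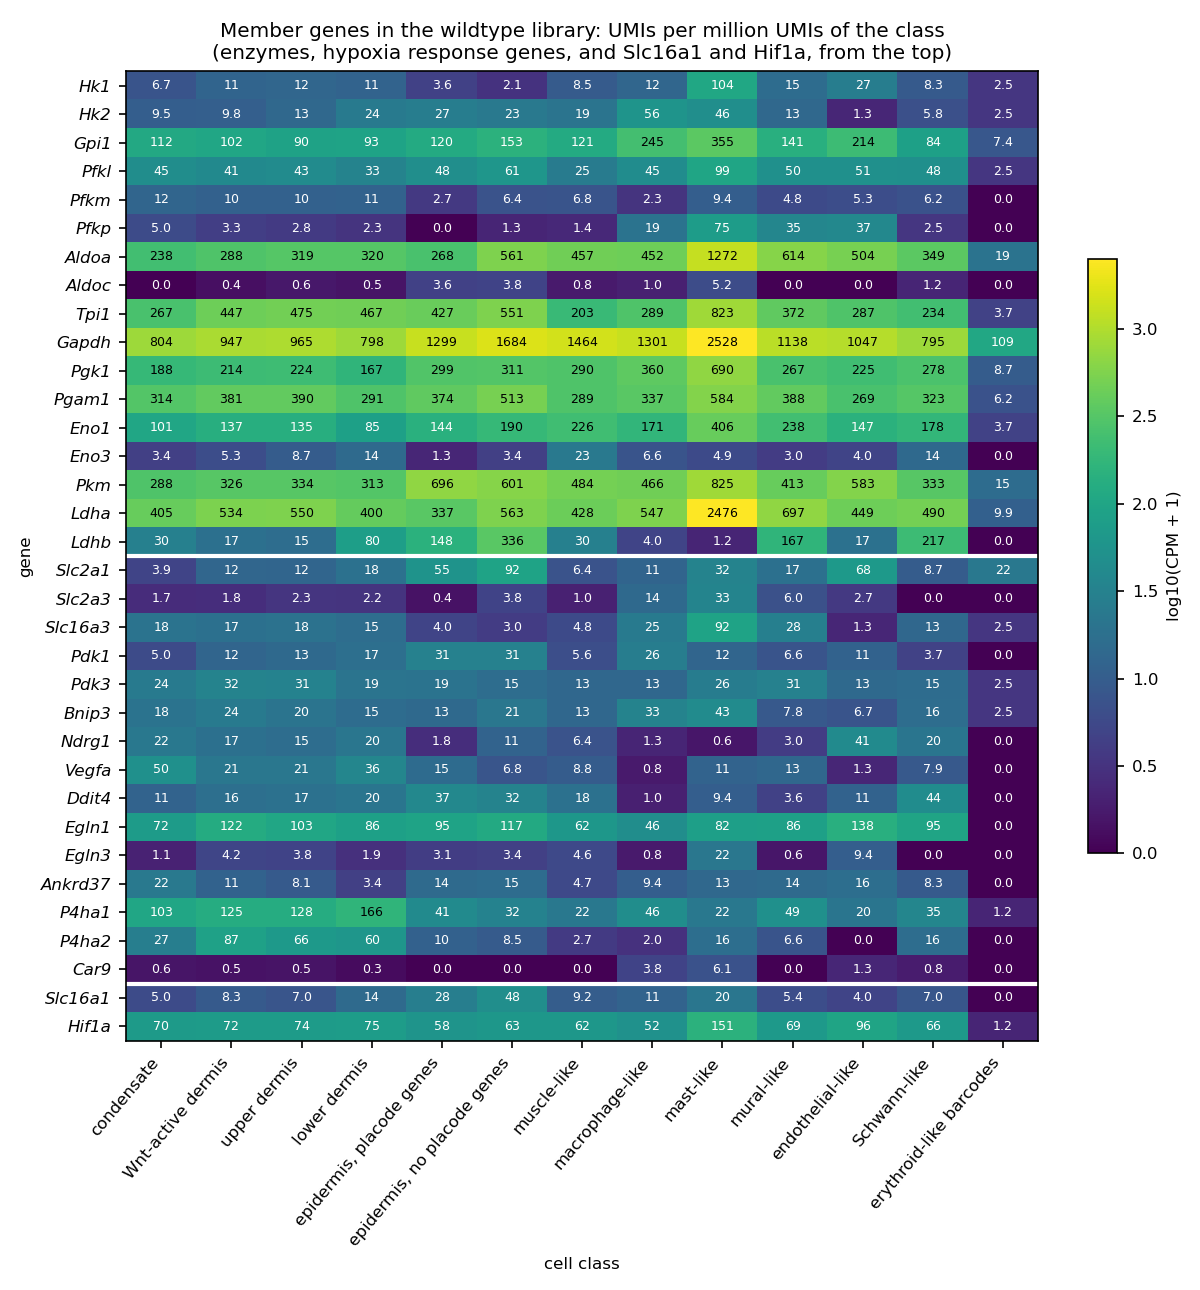
Level of each member in each wildtype cell class, in CPM of the class's UMIs on a log colour scale, with enzymes above and hypoxia response genes below. The mast-like column is the brightest for most enzymes (Gapdh 2528 CPM, Ldha 2476 CPM), while Ldhb is at 1.22 CPM there.

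The hypoxia response genes had no single high class. The glucose transporter Slc2a1 was highest in the epidermis (77.3 CPM) and in endothelial-like cells (68.2 CPM), levels with overlapping intervals, and was at 13.6 CPM in the dermis. Its relative Slc2a3, a high-affinity glucose transporter, was at 32.9 CPM in mast-like and 13.7 in macrophage-like cells, and had 0 UMIs in wildtype Schwann-like cells. Slc16a3, the lactate exporter MCT4, was at 92.0 CPM in mast-like cells and at 28.3 or less in the other classes. Pdk1, which switches off pyruvate dehydrogenase, was at 31.1 CPM in the epidermis and 26.3 in macrophage-like cells. The collagen prolyl hydroxylase subunits P4ha1 and P4ha2 were highest in the dermis, at 134 and 70.7 CPM. Those subunits modify collagen, the main product of dermal fibroblasts. Egln1, the main oxygen sensor, and Ndrg1, a stress response gene, were highest in endothelial-like cells at 138 and 41.4 CPM, and Egln1 overlapped with the epidermis at 108 CPM. Ddit4, an inhibitor of mTORC1, was at 43.8 CPM in Schwann-like and 33.9 CPM in epidermal cells, with overlapping intervals. Car9, a carbonic anhydrase used as a hypoxia marker, was nearly absent, with 23 UMIs in all wildtype dermal cells and at most 6.09 CPM in any class. Hif1a itself ranged from 51.6 CPM in macrophage-like to 151 CPM in mast-like cells. Of all 34 members, 28 had the same highest class in both libraries.

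In the dermis, most enzymes of the main glycolytic steps had lower levels in the mutant library, by less than 1.5-fold except Ldha. The 17 enzymes together had 3361 CPM in wildtype and 2685 CPM in the mutant, a log2 ratio (mutant over wildtype throughout) of -0.32 (-0.33 to -0.32). Of the 17, 12 had a negative ratio, and 11 had an interval wholly below 0 and 5 wholly above. At 1.5-fold, 1 enzyme was lower and 0 were higher. Across all 15609 genes measured in the dermis (20 or more UMIs over both libraries), 5.64% were lower and 10.9% were higher by that fold. The median log2 ratio was -0.28 for the enzymes, 0.03 for all measured genes and -0.08 for the 1554 genes at 100 CPM or more.

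The enzyme past the fold was Ldha (ENSMUSG00000063229, chromosome 7, 46841475 to 46855627, GRCm38). It had 30468 UMIs in wildtype and 25226 in mutant dermis, or 485 and 311 CPM. It was 1.56-fold lower, or -0.64 (-0.67 to -0.62) on the log2 scale. Ldhb went the other way, from 34.5 to 51.2 CPM (2168 and 4157 UMIs), a log2 ratio of 0.57 (0.50 to 0.65). The 2 subunits assemble into 1 tetrameric enzyme, so their balance can be given as a share. Ldhb made up 6.64% of the 2 genes' UMIs in wildtype dermis (6.38 to 6.92%, exact Clopper-Pearson) and 14.1% in the mutant (13.8 to 14.6%). That shift was present within each dermal subclass with cells in both libraries: 3.06% to 6.78% in Wnt-active cells, 2.73% to 6.16% in upper cells and 16.8% to 25.5% in lower cells. It was present outside the dermis in Schwann-like cells (30.7% to 43.0%) and not in muscle-like cells (6.48% and 6.43%).

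The steps between glucose and pyruvate followed a pattern by gene. At entry, Hk1 went from 11.1 to 14.1 CPM and Hk2 from 13.2 to 15.2 CPM, log2 ratios of 0.34 and 0.21. Gpi1, which isomerises glucose 6-phosphate, had 95.1 and 83.8 CPM (-0.18). Among the phosphofructokinases, the committing step, Pfkl had 39.8 and 27.0 CPM (-0.56, -0.64 to -0.48), close to the fold used here, while Pfkm had a ratio of 0.23 and Pfkp of -0.33. Aldoa went from 306 to 248 CPM (-0.30) and Tpi1 from 453 to 415 CPM (-0.13), the mildest of the abundant enzymes. In the payoff steps, which make ATP, Gapdh had 903 and 721 CPM (-0.33), Pgk1 201 and 148 CPM (-0.44), Pgam1 352 and 281 CPM (-0.33), Eno1 120 and 98.7 CPM (-0.28) and Pkm 325 and 245 CPM (-0.40). The muscle enolase Eno3 had a positive ratio of 0.37, from 541 to 900 UMIs. Aldoc was near the limit of counting, with 29 and 32 UMIs. The enzymes with positive ratios (Hk1, Hk2, Pfkm, Eno3, Ldhb) were all at 34.5 CPM or less in wildtype dermis. Gapdh, Aldoa and other enzymes with processed pseudogenes can lose reads to those copies, and the handling of such reads is not given in the sources used here.

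**Figure D2:**
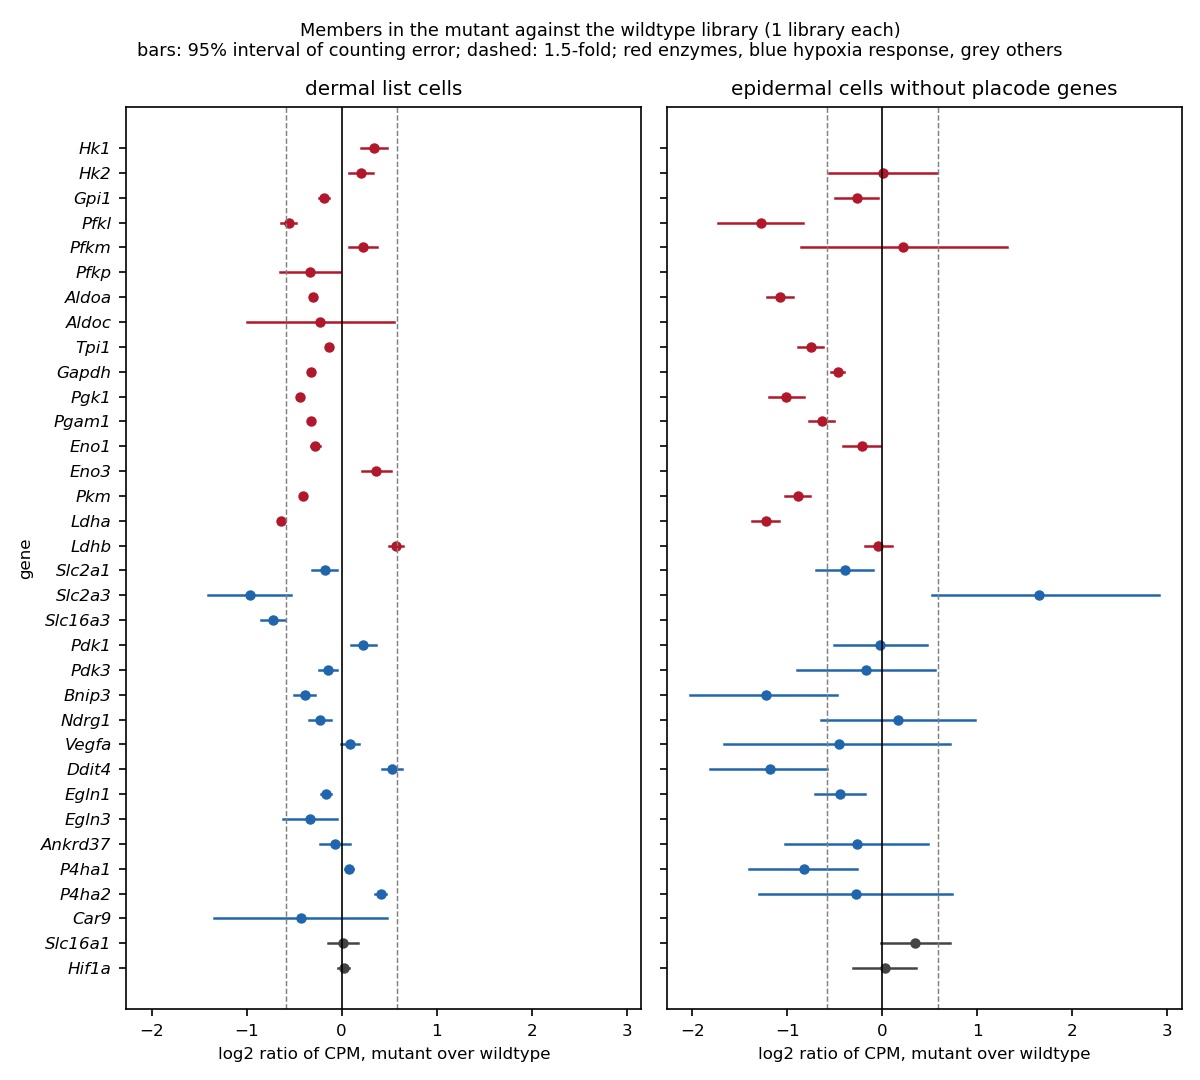
Log2 ratio, mutant over wildtype, of each measured member in dermal list cells and in epidermal cells without placode genes, with 95% counting intervals. Most abundant enzymes lie left of 0 in both panels, and Ldha lies at -0.64 in the dermis and -1.22 in the epidermis.

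The hypoxia response genes of the dermis were mixed. Of 15 measured, 0 were higher and 2 lower by 1.5-fold, where 10.9% and 5.64% of all measured genes were. There were 10 negative ratios, and the median was -0.16. Their sum had the other sign, at 477 and 488 CPM, a log2 ratio of 0.03 (0.01 to 0.06). P4ha1 and P4ha2 are the abundant members with positive ratios, and without that pair the sum was at 272 and 252 CPM (-0.11, -0.14 to -0.08). Whether this list differed from the enzymes was not tested. The 2 lower genes are both transporters. Slc16a3 had 17.2 and 10.4 CPM (1082 and 847 UMIs), a log2 ratio of -0.72 (-0.85 to -0.59). Slc2a3 was scarce, with 112 and 74 UMIs (1.78 and 0.912 CPM), a log2 ratio of -0.97 (-1.41 to -0.53). The other monocarboxylate transporter, Slc16a1, differed by 0.02 (-0.14 to 0.18). The main glucose transporter Slc2a1 had 13.6 and 12.0 CPM (-0.18).

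Targets with other roles lay on both sides of 0. Bnip3, which marks mitochondria for removal, had 1312 and 1295 UMIs, or 20.9 and 15.95 CPM (-0.39, -0.50 to -0.28). Ddit4 went the other way, with 18.2 and 26.3 CPM (0.53, 0.43 to 0.64), as did P4ha2 with 70.7 and 93.9 CPM (0.41). P4ha1 differed little at 134 and 141 CPM (0.08). Vegfa, the vessel growth factor, had 26.0 and 27.7 CPM (0.09, with an interval reaching 0), and Ankrd37 had a ratio of -0.07 (-0.23 to 0.09). Within the oxygen sensing loop, Hif1a was at 71.8 and 73.0 CPM (0.02), Egln1 at 104 and 92.3 CPM (-0.16) and Egln3 at 3.18 and 2.53 CPM (-0.33). Pdk1 (0.23) and Pdk3 (-0.14) had opposite signs, and Ndrg1 had a ratio of -0.23.

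Other genes of the hypoxia response, on a separate list, were near the background in the dermis. Of 25 measured, 4 were higher and 1 lower, where 10.9% and 5.64% of all genes were. Their median was 0.12, and their sum had the other sign (1684 and 1586 CPM, -0.09). Adm, the vessel peptide adrenomedullin, went from 2.58 to 5.36 CPM, and the collagen crosslinking genes Lox and Plod2 from 156 to 282 and from 32.4 to 52.8 CPM. Stc2 was the lower one, with 52 and 41 UMIs. Of 12 regulators of HIF, 0 were higher and 0 lower (median -0.08), with Hif3a at 0.34 and Cited2, a HIF-induced competitor for its coactivator, at 0.26. Of 11 other glycolytic isozymes and relatives, 2 were higher, Hkdc1 (41 and 127 UMIs) and Pdk2 (3.32 and 5.03 CPM).

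G2M genes differed between the same cells. Cells with UMIs of 3 or more of the 16, called cycling here, made up 47.6% of wildtype and 32.5% of mutant dermal cells. In every class this call used counts that were not thinned, so cycling shares depend on depth. Median depths in the dermis were 11154 and 15566 UMIs, and the shares are not like for like between libraries or classes. By UMIs, 10 of the 16 genes were lower (median -0.67). Without those cells the enzyme median was still -0.28, but Ldha, at -0.55 or 1.46-fold lower, was no longer past 1.5-fold. Slc2a3 was not either (-0.51), while Slc16a3 was (-0.76). The scarce Aldoc was then the 1 lower enzyme, at -0.73. Median mitochondrial shares were 1.97% and 2.44% of UMIs. Of 14 genes of the dissociation stress response, 1 was higher and 2 were lower (median -0.22), with Ier2 at 220.1 and 119 CPM. Markers of other classes summed to at most 58.4 CPM per list in either library, the highest being mural markers at 46.4 and 58.4 CPM. Their part in the enzyme ratios was not tested, apart from the values without cycling cells.

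The lower enzyme level was found in each dermal subclass, set by markers in cells thinned to 9000 UMIs. There were 1717 and 714 Wnt-active cells, 677 and 1332 upper cells and 889 and 1733 lower cells, wildtype first. A further 1300 and 367 cells were too shallow to class. Enzyme medians were -0.27 in Wnt-active, -0.34 in upper and -0.23 in lower cells. Ldha had 534 and 325 CPM in Wnt-active cells, 550.4 and 328 in upper cells and 400 and 286 in lower cells, with log2 ratios of -0.71, -0.75 and -0.48. Its ratio in lower cells (-0.53 to -0.43) did not overlap the intervals of the others, and the difference has no replicate check. Per cell, the median enzyme share went from 0.332% to 0.273% of UMIs in Wnt-active, from 0.343% to 0.273% in upper and from 0.297% to 0.243% in lower cells. Cycling cells were fewer in the mutant library in each of them too (67.4% and 45.5%, 60.7% and 41.1%, 30.8% and 21.9%).

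The subclasses differed more in the hypoxia response genes. P4ha2 went from 65.9 to 112 CPM in upper cells (0.77, 0.64 to 0.90) and from 59.8 to 67.8 CPM in lower cells (0.18, 0.05 to 0.31). In thinned cells, 42.7% of wildtype and 58.1% of mutant upper cells had a P4ha2 UMI, against 35.2% and 39.6% of lower cells, in the same direction as the CPM. Ddit4 had log2 ratios of 0.67 in Wnt-active, 0.63 in upper and 0.32 in lower cells. Slc16a3 had ratios of -0.76, -0.93 and -0.28 in the same order, and Slc2a3 had 42 and 3 UMIs in Wnt-active cells, 22 and 16 in upper and 25 and 43 in lower cells. The 2 transporters thus differed least in the lower dermis. Vegfa was flat within each subclass (0.05, 0.09 and 0.03), and its level was higher in lower cells (36.0 and 36.7 CPM) than in upper cells (21.3 and 22.7 CPM) in both libraries.

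**Figure D3:**
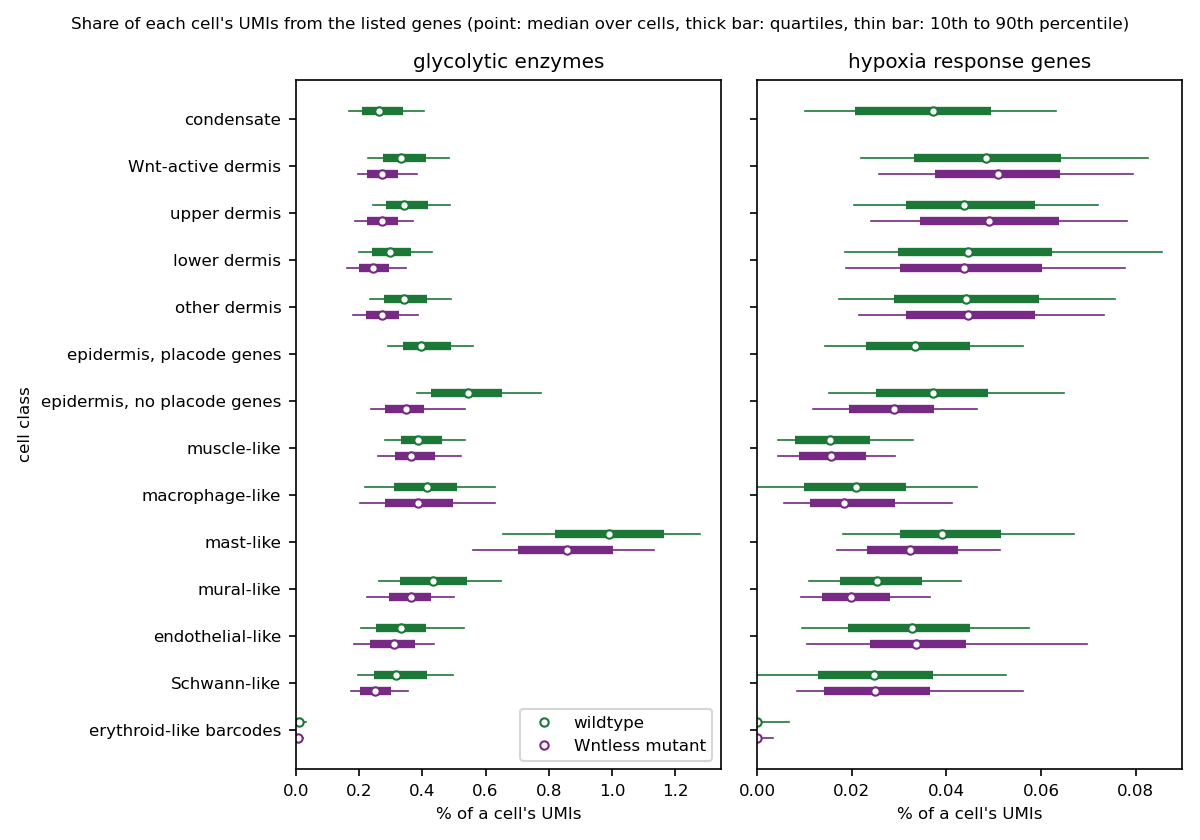
Share of each cell's UMIs that came from the 17 glycolytic enzymes, by class and library, drawn as the 10th to 90th percentile, the quartiles and the median over cells, which are not replicates. For the enzymes, the mutant medians lie below the wildtype medians in the classes drawn for both libraries. They go from 0.545% to 0.347% in epidermal cells without placode genes and from 0.387% to 0.364% in muscle-like cells. Medians of the hypoxia response genes differ in both directions, from 0.0438% to 0.0491% in upper dermal cells and from 0.0371% to 0.0288% in epidermal cells without placode genes.

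In the epidermis, where the Cre acts, the enzymes differed more. The comparison used cells with no UMI of 8 placode genes after thinning to one depth, 123 wildtype and 96 mutant cells, because 141 wildtype and 0 mutant cells had UMIs of 3 or more of those genes. The enzymes together had 5566 and 3543 CPM, a log2 ratio of -0.65 (-0.69 to -0.61). Of 13 measured, 0 were higher and 7 lower by 1.5-fold, with a median of -0.64. Across the 9109 genes measured there, 7.78% were higher and 10.6% lower, with a median of -0.08, and the 1270 genes at 100 CPM or more had a median of -0.13. Per cell, the median enzyme share was 0.545% in wildtype and 0.347% in mutant cells.

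The 7 lower enzymes span the pathway from its committing step to lactate. Pfkl had 143 and 61 UMIs, or 60.9 and 25.2 CPM, a log2 ratio of -1.27 (-1.73 to -0.83). Ldha had 1323 and 583 UMIs, or 563 and 241 CPM (-1.22, -1.37 to -1.08). Aldoa had 561 and 266 CPM (-1.08) and Pgk1 311 and 155 CPM (-1.01), so these 4 were at least 2.01-fold lower. Pkm followed at 601 and 324 CPM (-0.89), Tpi1 at 551 and 327 CPM (-0.75) and Pgam1 at 513 and 330.1 CPM (-0.64). Gapdh was short of the fold at 1684 and 1217 CPM (-0.47, -0.54 to -0.40), as was Eno1 (-0.22). Ldhb differed by -0.04 (336 and 327 CPM) and Hk2 by 0.01 (54 and 56 UMIs). As Ldha was lower and Ldhb level, the Ldhb share went from 37.4% (35.3 to 39.5%) to 57.6% (54.9 to 60.2%).

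Of 12 measured hypoxia response genes in these cells, 1 was higher and 3 were lower (median -0.34). Of all measured genes, 7.78% were higher and 10.6% lower. Bnip3 had 50 and 22 UMIs (21.3 and 9.10 CPM), a log2 ratio of -1.23 (-2.02 to -0.48). Ddit4 had 75 and 34 UMIs (31.9 and 14.1 CPM), a ratio of -1.18 (-1.81 to -0.58), opposite in sign to its ratio in the dermis. P4ha1 had 74 and 43 UMIs (-0.83, -1.40 to -0.26). These counts are small. Without cycling cells none of the 3 was past 1.5-fold, with Bnip3 at -0.06, Ddit4 at -0.56 and P4ha1 at -0.41. Those ratios rest on still fewer UMIs, since 77.2% of wildtype and 75% of mutant cells were cycling. Slc2a1, the main glucose transporter of the epidermis, had 92.0 and 69.9 CPM (-0.40, -0.70 to -0.10), and Egln1 117 and 86.0 CPM (-0.44). Hif1a (0.02), Pdk1 (-0.02) and Ankrd37 (-0.26, -1.02 to 0.48) showed no difference beyond counting error. Slc16a3 had 7 and 0 UMIs, and Slc16a1, the other lactate carrier, 47.7 and 60.8 CPM (0.35, -0.01 to 0.72).

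The higher gene was Slc2a3 (ENSMUSG00000003153, chromosome 6, 122727809 to 122801640), with 9 UMIs in wildtype and 29 in mutant cells, 3.83 and 12.0 CPM (1.65, 0.53 to 2.91). Over all epidermal cells it had 12 UMIs in 11 of 430 wildtype cells and 61 UMIs in 39 of 146 mutant cells. By CPM that is 9.35-fold higher (3.23, 2.32 to 4.25), in sets not matched in make-up or depth. The wildtype set held 141 cells with placode genes, with 1 Slc2a3 UMI, and the mutant set held 0 such cells. Median depths of the sets were 14607.5 and 23436.5 UMIs. In thinned cells without placode genes 4.88% (1.81 to 10.3%) of wildtype and 17.7% (10.7 to 26.8%) of mutant cells had a UMI. Barcodes with red cell markers had 0 Slc2a3 UMIs, in 71 wildtype and 150 mutant barcodes. Their median depths were 11046 and 15789 UMIs, against 17203 and 23392 in these epidermal cells. They held few genes (medians of 279 and 307.5), and Ldha was at only 9.91 and 4.07 CPM in them. For a gene as scarce as Slc2a3, 0 UMIs there cannot decide on free RNA. Mast-like cells had the highest level of Slc2a3, and of 8 mast markers 2 in wildtype and 3 in mutant epidermal cells without placode genes had a UMI, 3 and 15 UMIs in all, with Kit and Fcer1a at 0 in both. Without cycling cells the Slc2a3 ratio was 0.04. Cycling cells were 77.2% of wildtype and 75% of mutant cells here. That ratio thus rests on the few cells left and cannot show whether the difference persists without cycling cells.

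Most other hypoxia targets measured in these epidermal cells were lower. Of 16 measured, 10 were lower and 2 higher (median -0.68), where 10.6% of all measured genes were lower and 7.78% higher. Higd1a and Fam162a, which encode mitochondrial proteins, went from 376 to 164 and from 454 to 205 CPM, and Tfrc, the transferrin receptor, from 38.8 to 17.4 CPM. The histone demethylase Kdm3a was 1 of the 2 higher ones, with 20 and 36 UMIs and an interval that included 0 (-0.02 to 1.67). Of 10 HIF regulators, 1 was higher and 1 lower (median -0.21); Arnt, the HIF partner, had 22 and 45 UMIs (0.99, 0.22 to 1.80). Of these epidermal cells 77.2% and 75% were cycling, and the 16 G2M genes had a median of 0.22.

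The make-up of the epidermal cells differed between libraries. Krt1 was at 184 and 153 CPM and Krt10, also a keratin of differentiating cells, at 322 and 216 CPM. No UMI of either was found in 43 of 123 wildtype and 18 of 96 mutant cells. That share was larger in wildtype, although both keratins had more CPM there. Median depths were 17203 and 23392 UMIs, so these counts of cells are not like for like. In the cells with no UMI of either, the enzyme median was -0.85, from 12 enzymes. Fibroblast markers summed to 307 CPM in wildtype (8 of 8 detected) and 218 CPM in mutant cells (6 of 8, Pdgfra and Dpt at 0), against 5158 and 5893 CPM in the dermis. Their part in the result was not tested. Cells with 1 or 2 placode genes (95 and 47) gave an enzyme median of -0.43, and all epidermal cells together gave -0.28, a set in which the wildtype arm alone held placode cells.

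**Figure D4:**
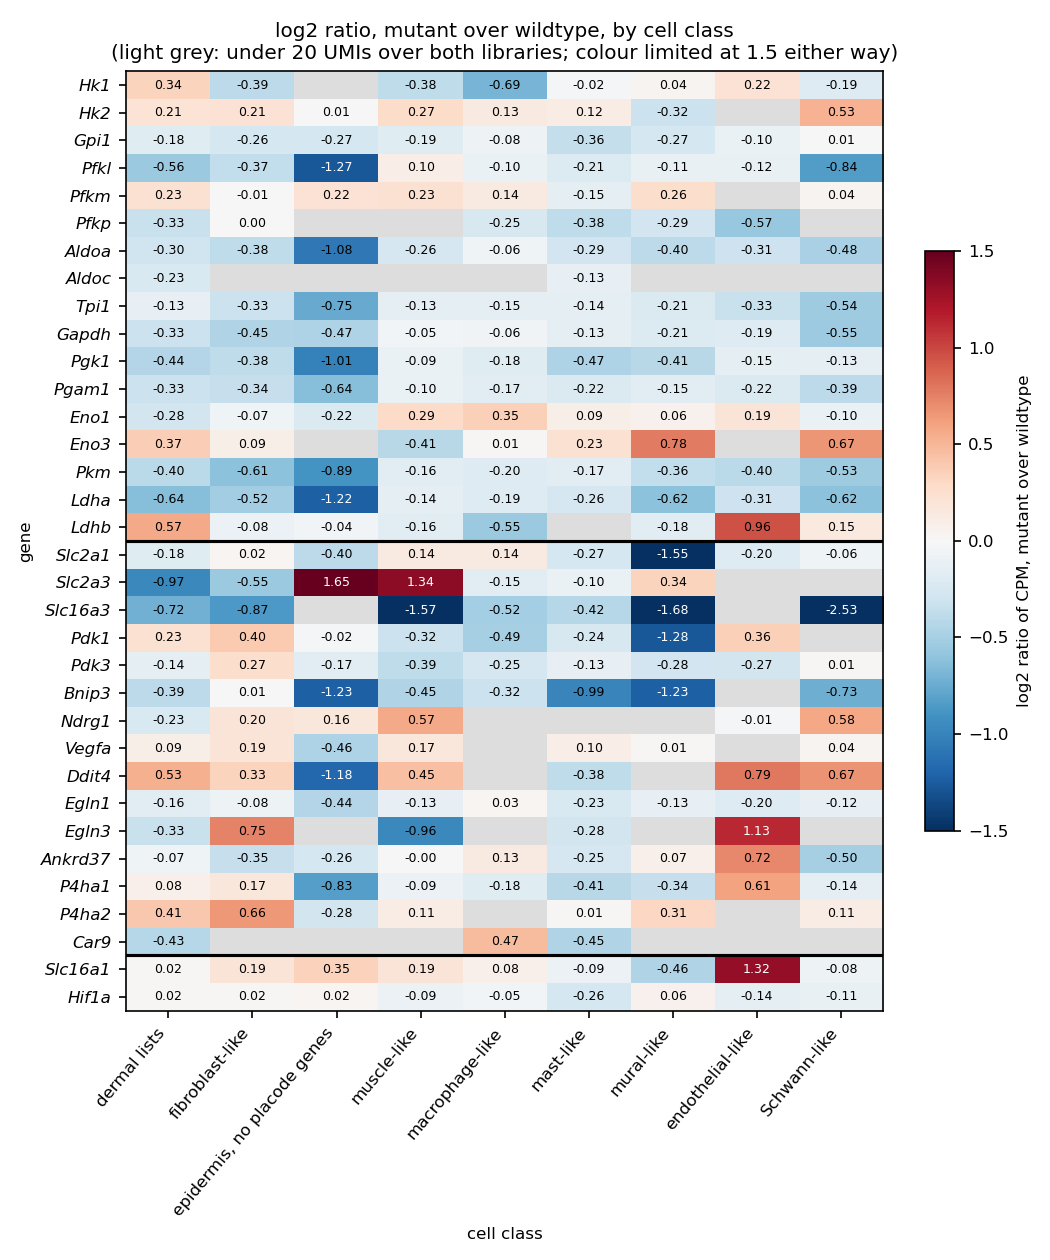
Log2 ratio, mutant over wildtype, of each member in each cell class with both libraries, as colour, with unmeasured members left blank. Aldoa, Tpi1, Gapdh, Pgk1, Pgam1, Pkm and Ldha are negative in all 9 classes, and Slc16a3 in the 7 in which it was measured.

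Outside dermis and epidermis the enzymes together were also lower in the mutant library, by amounts that varied with the class. Fibroblast-like cells off the dermal lists (454 and 513) had 3107 and 2352 CPM of the enzymes, a log2 ratio of -0.40 (-0.43 to -0.38). Schwann-like cells had 3367 and 2568 CPM (-0.39, -0.43 to -0.35), and mural-like cells 4556 and 3722 CPM (-0.29, -0.33 to -0.25). These are about as large as the ratio of -0.32 in the dermis. The summed ratios were smaller in endothelial-like (-0.23), mast-like (-0.21), macrophage-like (-0.10) and muscle-like cells (-0.09). Per cell, the median enzyme share went from 0.279% to 0.225% in the fibroblast-like, from 0.316% to 0.249% in the Schwann-like and from 0.435% to 0.363% in the mural-like cells. Cycling shares were 86.6% and 69.4%, 52.4% and 51.6%, and 94.9% and 79.0% in the same order, and their part in these ratios was not tested.

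In the fibroblast-like cells off the lists 1 of 16 enzymes was lower by 1.5-fold and 0 higher (median -0.33), against 3.88% of genes lower and 8.13% higher. The lower one was Pkm, at 343 and 224 CPM (-0.61, -0.69 to -0.53), and Ldha had 396 and 277 CPM (-0.52). Of 14 hypoxia response genes there, 10 had positive ratios (median 0.18). P4ha2 (32.5 and 51.2 CPM, 0.66, 0.44 to 0.88) and Egln3 (9 and 24 UMIs) were higher, and Slc16a3 was lower (77 and 67 UMIs, -0.87, -1.36 to -0.38).

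In muscle-like cells the enzyme median was -0.13, from 4078 to 3841 CPM in sum, and 0 of 15 enzymes passed 1.5-fold in either direction. Of 14 hypoxia response genes there, 1 was higher (Slc2a3, 8 and 26 UMIs) and 2 lower (Slc16a3, 37 and 16 UMIs, and Egln3, 35 and 23), against 3.83% of all genes higher and 6.08% lower. Macrophage-like cells had a median of -0.12 with 1 of 16 enzymes lower, Hk1 at 12.1 and 7.51 CPM, and 0 of 10 hypoxia genes past the fold, against 4.44% of genes higher and 5.55% lower. Mast-like cells went from 10305 to 8917 CPM (median -0.16) with 0 of 16 enzymes past the fold. Of their 14 hypoxia genes Bnip3 was lower, at 43.0 and 21.6 CPM (-0.99, -1.33 to -0.65), against 7.33% of genes higher and 3.85% lower.

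The smaller classes gave wider intervals. In mural-like cells 1 of 16 enzymes was lower (Ldha, 697 and 454 CPM) and 1 higher (Eno3, 5 and 17 UMIs), with a median of -0.21, and 4 of 11 hypoxia genes were lower, against 5.52% of genes lower and 9.23% higher. Those 4 were Slc16a3 (47 and 29 UMIs, -1.68), Slc2a1 (28 and 19, -1.55), Pdk1 (11 and 9) and Bnip3 (13 and 11). The latter 2 had intervals that reached above 0. In Schwann-like cells 2 of 15 enzymes were lower, Ldha (490.1 and 319 CPM, -0.62) and Pfkl (48.3 and 26.9 CPM, -0.84), and Eno3 was higher (33 and 78 UMIs), with a median of -0.19, against 4.62% of genes lower and 6.74% higher. Of 11 hypoxia genes there, Slc16a3 (31 and 8 UMIs, -2.53, -3.86 to -1.37) and Bnip3 (38 and 34 UMIs) were lower, and Ddit4 was higher at 43.8 and 69.7 CPM (0.67, 0.34 to 1.01).

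Endothelial-like cells, the class with the fewest cells (57 and 87), had the most higher hypoxia response genes of these classes. Of 9 measured, 4 were higher and 0 lower (median 0.36), against 10.5% of genes higher and 7.32% lower. The 4 were Egln3 (7 and 39 UMIs), Ddit4 (8 and 35), Ankrd37 (12 and 50) and P4ha1 (15 and 58), each with an interval that reached below 0. Ldhb was the 1 higher enzyme of 13 (13 and 64 UMIs, 0.96, 0.08 to 1.94), and the enzyme median was -0.19.

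Across the 9 classes with both libraries, the signs of the ratios can be counted gene by gene. Of the 17 enzymes, 10 were measured in all 9 classes. Of these, 7 were negative in all 9: Aldoa, Tpi1, Gapdh, Pgk1, Pgam1, Pkm and Ldha. The share of all genes negative in all 9 is not given here, so this count is a description only. Ldha ranged from -1.22 to -0.14 with a median of -0.52 and was past 1.5-fold in 4 classes. Pkm ranged from -0.89 to -0.16. Eno1, the main enolase, was mixed, with 4 negative and 5 positive ratios from -0.28 to 0.35. Hk2 was positive in 7 of 8 classes, by at most 0.53. Slc16a3 was negative in all 7 classes measured, from -2.53 to -0.42, and its intervals lay below 0 in 7. Bnip3 was negative in 7 of 8 classes. Hif1a stayed within -0.26 to 0.06, and Vegfa within -0.46 to 0.19. The classes share the 2 libraries, so a property of a library as a whole would appear in each of them.

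Within the wildtype library, epidermal cells with placode genes had less of several enzymes than those without. Placodes are the thickenings that start hair follicles. The 141 cells with UMIs of 3 or more of 8 placode genes had 4199 CPM of the enzymes, against 5566 in the 123 cells with none, a log2 ratio (with over without) of -0.41 (-0.45 to -0.37). Of 13 measured enzymes, 4 were lower and 0 higher (median -0.37), where 12.6% of 9235 genes were lower and 19.4% higher (median 0.07). Ldhb was at 336 CPM without and 148 CPM with placode genes (-1.18, -1.37 to -0.99). Aldoa had 561 and 268 CPM (-1.06) and Ldha 563 and 337 CPM (-0.74). Pfkm, the fourth, rested on 15 and 6 UMIs. Pkm was the exception among the abundant enzymes, at 601 and 696 CPM (0.21, 0.11 to 0.32), and Pgk1 differed by -0.06 (-0.21 to 0.09).

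Among the hypoxia response genes of placode cells, 1 of 11 was higher and 3 were lower (median 0.00). Of all measured genes, 19.4% were higher and 12.6% lower. Vegfa was the higher one, with 16 UMIs without and 33 with placode genes (6.81 and 14.7 CPM, 1.11, 0.21 to 2.07), and it was under the minimum of 20 UMIs without cycling cells. In thinned cells 8.13% (3.97 to 14.4%) and 14.2% (8.88 to 21.05%) had a Vegfa UMI. Barcodes with red cell markers had 0, which cannot decide on free RNA for so scarce a gene. Slc2a1 was lower, at 92.0 and 54.8 CPM (-0.75, -1.08 to -0.42), as was Ndrg1 with 26 and 4 UMIs (-2.63, -4.61 to -1.11). Bnip3 had 50 and 30 UMIs (-0.67, -1.37 to 0.01). Slc16a1 was lower as well (47.7 and 27.6 CPM). The placode cells held 745 summed CPM of fibroblast markers (7 of 8 detected, Tbx15 at 0) against 307 CPM, and the enzymes summed to 3361 CPM in wildtype dermal cells. The part of fibroblast RNA in these ratios was not tested. Cycling shares were 75.2% and 77.2%.

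Condensate cells, the dermal cells under the placodes that become the dermal papilla, were compared with the other wildtype dermal cells deep enough to class. The 151 cells had UMIs of 3 or more of 8 condensate genes, and 0 mutant cells did. Their enzymes summed to 2829 CPM against 3429 CPM, a log2 ratio of -0.28 (-0.32 to -0.24). Of 16 measured enzymes, 1 was higher and 3 lower (median -0.20), where 19.1% of 13116 genes were higher and 21% lower (median -0.01). Tpi1 was at 462 CPM in other cells and 267 CPM in condensate cells (-0.79, -0.92 to -0.66). Eno3 (452 and 6 UMIs) and Hk1 (598 and 12 UMIs) were the other lower ones, and Pfkp, with 142 and 9 UMIs, was the higher one with an interval that included 0. Gapdh had 918 and 804 CPM (-0.19), and Ldha 505 and 405 CPM (-0.32, -0.43 to -0.21).

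The hypoxia response genes of the condensate lay on both sides of 0. Vegfa was at 25.1 CPM in other dermal cells and 50.5 CPM in condensate cells, from 1302 and 90 UMIs. In thinned cells 33.8% (26.3 to 41.9%) of condensate cells had a Vegfa UMI, against 17.7% of Wnt-active, 16.2% of upper and 27.7% of lower cells. Ankrd37 had 8.26 and 22.4 CPM (1.44, 0.93 to 1.91), from 428 and 40 UMIs. The condensate thus had the highest wildtype level of both genes among the dermal subclasses. In contrast P4ha2 had 72.5 and 27.5 CPM (-1.40, from 3758 and 49 UMIs) and Slc2a1 13.8 and 3.92 CPM (-1.81, -3.13 to -0.76). Pdk1 was lower with 679 and 9 UMIs, as were Ddit4 (911 and 20) and Egln3 (175 and 2). Egln3 rested on 2 condensate UMIs, with an interval that included 0. Thus 2 of 15 genes were higher and 5 lower, where 19.1% of all measured genes were higher and 21% lower. Egln1 had 108 and 72.3 CPM and Hif1a 73.7 and 70.1 CPM. Of the condensate cells 17.9% were cycling, and 16 of 16 G2M genes were lower there (median -1.41). Without cycling cells on either side, Ankrd37 was at 2.02 and Tpi1 at -0.94.

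**Figure D5:**
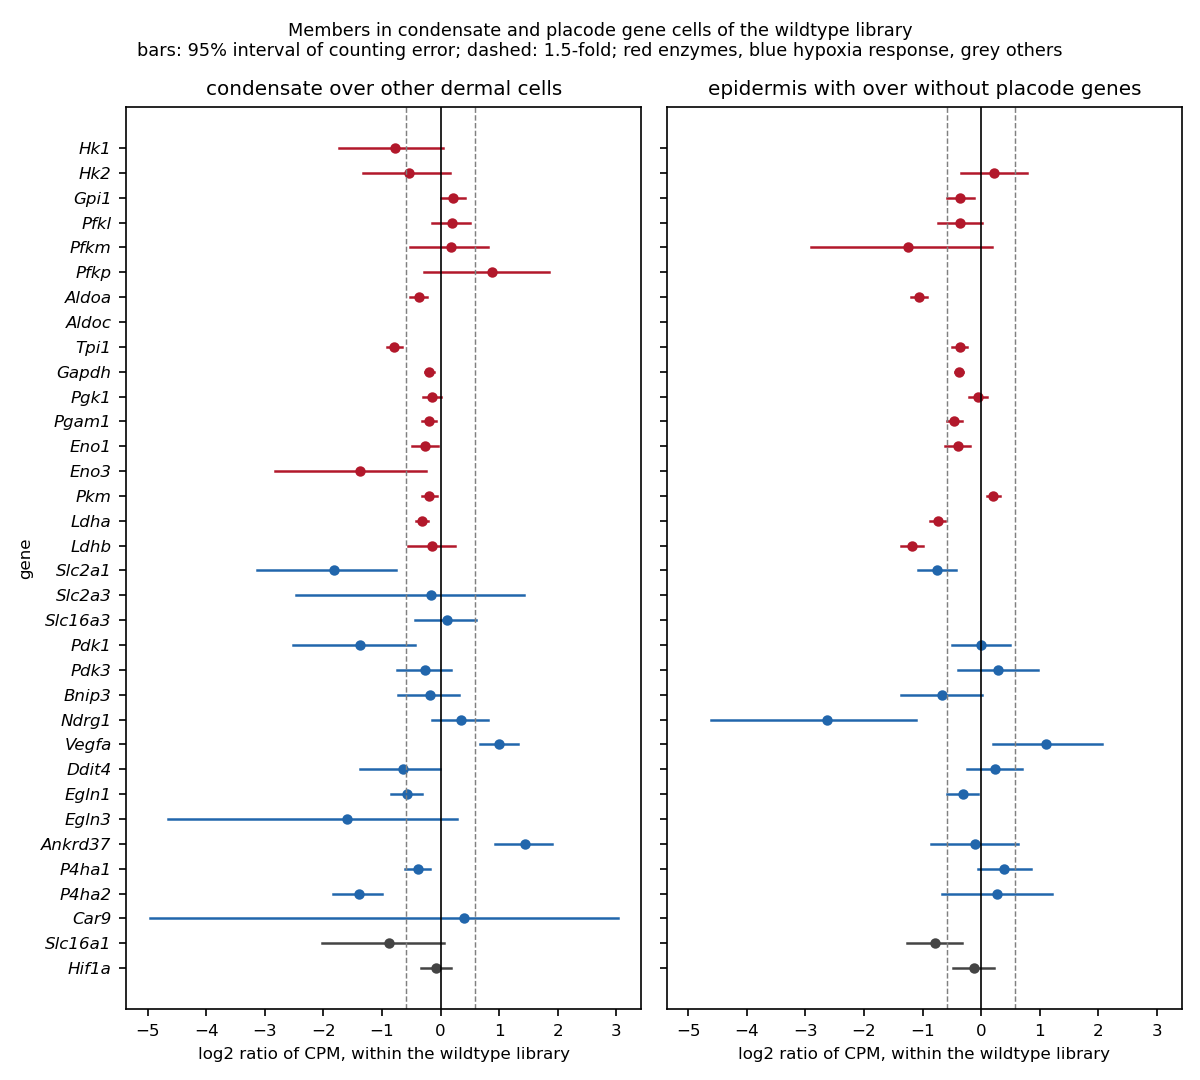
Log2 ratio of each measured member within the wildtype library, epidermal cells with over those without placode genes and condensate over other dermal cells, with 95% counting intervals. Vegfa is right of 0 in both panels (1.11 and 1.01) and Slc2a1 left of 0 in both (-0.75 and -1.81).

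The ratios can be set beside the cores in the longer windows, of which the 6 stretches printed are a part. In the dermis the 12 enzymes with a core had a median of -0.30 and the 5 without one -0.18. In epidermal cells without placode genes the 9 measured enzymes with a core had a median of -0.47 and the 4 without -0.82. Ldha, with 7 cores, was lower there, as were Pkm, Aldoa and Tpi1, with none, while Gpi1, also with none, was short of the fold (153 and 127 CPM, -0.27). Bnip3 and Ankrd37, which both have cores, had ratios of -1.23 and -0.26 in those cells.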

How the data were processed

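The deposited matrices hold whole-number UMI counts per gene and barcode, which the file headers trace to Cell Ranger 6.1.2 as run by the authors. The build mm10 and Seurat are named in the submitters' processing notes. The barcode and gene files and the authors' dermal barcode lists hold other information, names only. How the dermal cells were chosen, and the counting of reads shared between gene copies, are not given in the sources used here.

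Cells off those lists that had at least 1000 genes and less than 10% of UMIs from mitochondrial genes were put in a class when 3 or more of its markers had a UMI and its marker share was at least 1.5 times that of the next class. No doublet caller was run. As an alternative, the deepest 5% of cells and cells with 3 or more markers of another class were left out. Subclasses used cells thinned to 9000 UMIs (dermis) or to a fixed, somewhat greater depth (epidermis). UMIs were summed per class and library and given as CPM of the class sum. Levels carry exact Poisson intervals and ratios exact conditional binomial intervals. For a gene at 0 in 1 arm the floor of 3 counts per class took its place, and no fold was made where that floor exceeded the other arm. The code was tested on simulated counts with known folds. Each group has 1 library, so no test, p-value or pairing was possible, and intervals do not cover the spread between embryos or libraries.

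The 34 members, the marker lists and the context lists were chosen with earlier results of these data known. Besides the members, each context list could give up to 4 names, those farthest from a log2 ratio of 0 among genes of at least 50 UMIs in the dermis or in epidermal cells without placode genes. Coordinates are GRCm38 from GENCODE mouse release 21, and promoters are from RefSeq (GRCm38.p6), which held 32 of the 34 members by symbol. Aldoa has a second row under the same symbol, which was left apart. Melanoblast-like cells (28 and 17) were too few to use. Alternatives covered other scalings, means over cells, thinned cells, UMI minimums, leaving out cycling cells, mitochondrial limits and other class limits. Python 3.11.15, numpy 2.4.6, scipy 1.17.1, pandas 2.3.3 and matplotlib 3.10.9 were used.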

Additional observations from a re-analysis of the deposited data

Results flagged for a closer look

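Slc2a3 and Ddit4 had ratios, mutant over wildtype on the log2 scale, of opposite sign in different classes. These differences between classes were not tested, since each class has 1 library per genotype. Slc2a3 was at 1.65 in epidermal cells without placode genes (9 and 29 UMIs) and at 1.34 in muscle-like cells (8 and 26 UMIs), but at -0.97 in dermal list cells (112 and 74 UMIs). Ddit4 was at 0.67 in Schwann-like cells and at -1.18 in epidermal cells without placode genes.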

How the results depend on the processing

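No list median changed sign under any alternative that was run, apart from the hypoxia response genes of placode cells, whose median of 0.00 ranged from -0.06 to 0.17. The enzyme median of the dermis (-0.28) was -0.21 with the dermal subclasses weighted alike and -0.20 when scaled so that genes at 100 CPM or more have a median of 0, a scaling chosen after seeing the data. With that scaling Ldha was at -0.56, 0 enzymes were lower and 1 was higher, and 1 hypoxia response gene was higher, since all dermal ratios shift by 0.08. In epidermal cells the enzyme median (-0.64) was -0.28 over all epidermal cells. Chosen after seeing the data, it was -0.85 in cells without Krt1 or Krt10 UMIs and -0.43 in cells with 1 or 2 placode genes. The cause of these moves was not tested. That scaling shifts epidermal ratios by 0.13 and condensate ratios by 0.11.

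Counts past 1.5-fold moved mostly for scarce genes. Without cycling cells, Ldha in the dermis (-0.55) was no longer past the fold, Aldoc (-0.73) was the 1 lower enzyme in its place, lower hypoxia response genes went from 2 to 1 there, and in epidermal cells without placode genes from 3 to 1 lower and 1 to 0 higher, with 1 enzyme higher instead of 0. In thinned dermal cells 1 hypoxia gene was higher instead of 0. Over all epidermal cells 2 enzymes were higher, and 6 hypoxia genes were lower and 2 higher. The 1 higher gene, Slc2a3, dropped out at 50 or more UMIs and without Krt1 or Krt10 UMIs, leaving 0. For placode cells, lower hypoxia genes went from 3 to 1 after thinning. The higher ones went from 1 to 0 at 50 or more UMIs or at 4 or more placode genes and to 2 without cycling cells. There 1 enzyme was higher instead of 0 without cycling cells or without a UMI minimum, and Pfkm and Bnip3 turned to 0.85 and 0.44 without cycling cells. In condensate cells, lower enzymes went from 3 to 5 without cycling cells. The higher ones went from 1 to 0 after thinning and to 2 against Wnt-active cells. Slc2a3 in epidermal cells ranged from 0.04 without cycling cells to 4.33 in cells with 1 or 2 placode genes. Both ends rest on few UMIs, with 2 wildtype UMIs in the cells with 1 or 2 placode genes. Of 454 settings run on 35 member ratios past the fold, 421 stayed in the main interval, 31 left it in the same direction and 2 changed direction. No paired analysis was possible because each genotype has 1 library. Depth limits the scarce members, such as Aldoc, Car9 and Slc2a3, and the classes under 100 cells, whose intervals are widest. How the 19 shared barcodes arose was not examined.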

Other observations

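Mitochondrial energy genes lay nearer to 0 than the enzymes in both layers. Of 35 genes of oxidative phosphorylation, 0 were higher and 0 lower by 1.5-fold in the dermis and in epidermal cells without placode genes. Their medians were -0.12 and -0.20 (mutant over wildtype, log2). Of all measured genes, 5.64% were lower and 10.9% higher in the dermis, and 10.6% and 7.78% in those epidermal cells. In the dermis 34 of the 35 ratios were negative. The share of negative ratios over all genes is not given here, so this count is a description only. The cytochrome oxidase subunit Cox5a, at 414 and 318 CPM (-0.38), was the named gene farthest from 0. Of 19 genes of the TCA cycle, 0 were higher and 0 lower in the dermis (median -0.12), and in the epidermal cells 1 was lower (median -0.23), the pyruvate dehydrogenase subunit Pdha1 at 83.9 and 49.2 CPM (-0.77, -1.11 to -0.43). The 7 genes of the pentose phosphate pathway had medians of -0.19 and -0.23 with 0 past the fold in either class, and Tkt, the transketolase, was at -0.22 and -0.50.

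Within the wildtype epidermis, cells with placode genes had less of the mitochondrial genes than those without. Of 35 oxidative phosphorylation genes 9 were lower and 0 higher (median -0.39), and of 19 TCA cycle genes 5 were lower (median -0.40), where 12.6% of all genes were lower and 19.4% higher. Of 11 stress response genes 6 were higher and 2 lower in that comparison (median 0.61). For mutant over wildtype cells without placode genes 1 of 12 was higher and 2 lower (median -0.37), where 7.78% of all genes were higher and 10.6% lower, and Jun had 25 and 58 UMIs.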
